A study of Rattus norvegicus with 24 samples.

Results

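The extracellular proteases and protease inhibitors of the rat mesenteric artery were followed in ovariectomised females given a sex steroid or its carrier oil. The members were all array probes with a single gene symbol of the families Mmp (matrix metalloproteinases), Adam and Adamts (including Adamtsl), Cts (cathepsins with a one-letter name, leaving out Ctss), Plau (with Plaur), Timp and Serpin. They came to 59 of the 10399 probes and stood for 50 genes, namely 10 Mmp, 13 Adam, 4 Adamts, 10 Cts, 3 Plau, 3 Timp and 16 Serpin probes. Of these, 58 were tested. The remaining probe, the second one for Adam15 (probe 10213), had values in only 5 of 12 animals, which were 4.53 and 3.29 in estradiol benzoate animals 2 and 3, 3.73 in testosterone animal 2, and 3.11 and 3.33 in vehicle animals 3 and 4.

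Each group held 4 female Sprague Dawley rats, a wild-type outbred stock, with no genetic change named in the labels. The first group received estradiol benzoate, an ester of the natural estrogen, at 0.15 mg/kg/day, and included animals 2, 3, 5 and 8. The second received testosterone at 1 mg/kg/day, and included animals 2, 4, 6 and 8. The vehicle group received sesame oil, and included animals 3, 4, 5 and 8, which the labels mark C and the plots mark V. All 3 groups shared ovariectomy at 3 weeks of age, 2 weeks of recovery, daily intraperitoneal injection for 4 days and an age of 5.5 weeks at the end, so no group had intact ovaries. No hormone level was used here. Arteries were dissected away from fat and veins, and the cRNA of each animal was read on 2 one-colour CodeLink arrays (AA and AB). Values below are the authors' spot intensities, whose array medians lay between 0.926 and 0.951, and each animal is represented by the mean of its pair of arrays on the log2 scale. Per-animal values always follow the animal order given above.

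Matrix metalloproteinases and ADAMTS enzymes cut collagens, elastin and proteoglycans of the vessel wall, while ADAMs shed cell-surface proteins. Tissue inhibitors of metalloproteinases (TIMPs) block these enzymes, cathepsins work mainly in lysosomes, and urokinase with its receptor turns plasminogen into plasmin at the cell surface. Serpins are a large family of mostly serine protease inhibitors, many of which the liver secretes into plasma.

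The promoters of 4 members are shown because each holds a searched motif and its gene's values are given below. Mmp10 varied between animals and also between duplicate arrays, Serpina7 is a dim liver serpin highest in vehicle animal 5, and Serpina3n and Serpina3m are relatives that array probes may not separate. They are the 250 bases before the transcription start in RefSeq, build GRCr8, printed 5′ to 3′ on the gene's strand. Capitals mark an AP-1 motif (TGANTCA) in Mmp10, an HNF1-type motif (GTTAAT) in Serpina7 and an androgen-element-like motif (GNACA and TGTNC with 3 bases of any kind between them) in the Serpina3 pair. Their positions are chr8:12974457-12974706 on the plus strand for Mmp10, chrX:107457682-107457931 on the minus strand for Serpina7, chr6:129088142-129088391 on the plus strand for Serpina3n and chr6:128836840-128837089 on the minus strand for Serpina3m.
Mmp10: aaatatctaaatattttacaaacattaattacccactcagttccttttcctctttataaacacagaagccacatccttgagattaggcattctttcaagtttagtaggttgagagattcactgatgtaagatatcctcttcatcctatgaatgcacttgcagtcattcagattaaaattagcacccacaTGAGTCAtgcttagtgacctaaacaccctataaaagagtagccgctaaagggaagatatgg
Serpina7: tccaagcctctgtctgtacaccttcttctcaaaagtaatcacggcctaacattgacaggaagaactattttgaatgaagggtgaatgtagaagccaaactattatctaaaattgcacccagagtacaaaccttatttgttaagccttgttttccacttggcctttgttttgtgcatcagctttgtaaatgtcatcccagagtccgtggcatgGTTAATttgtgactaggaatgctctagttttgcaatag
Serpina3n: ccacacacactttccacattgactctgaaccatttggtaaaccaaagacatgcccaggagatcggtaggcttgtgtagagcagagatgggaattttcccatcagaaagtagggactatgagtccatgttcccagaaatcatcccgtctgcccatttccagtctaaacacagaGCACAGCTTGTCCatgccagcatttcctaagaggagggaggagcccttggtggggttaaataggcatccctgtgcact
Serpina3m: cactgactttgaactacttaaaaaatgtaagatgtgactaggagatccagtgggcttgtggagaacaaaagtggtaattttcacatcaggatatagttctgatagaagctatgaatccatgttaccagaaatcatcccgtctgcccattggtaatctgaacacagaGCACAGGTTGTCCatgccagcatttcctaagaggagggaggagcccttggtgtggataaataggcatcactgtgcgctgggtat

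A promoter entry was found for 37 of the 50 genes, and each motif was searched on both strands of those 250 bases. The AP-1 motif was present in 6 of the 37 (16.2%), namely Adam19, Mmp10, Mmp12, Mmp13, Plaur and Serpinb2, against 6.34% of all 33469 promoters. The androgen-element-like motif was present in Serpina3m and Serpina3n, 2 of 37 (5.41%), against 0.373% of all. Serpina3n and Serpina3m promoters matched at 195 of 234 paired bases (83.3%). GTTAAT was found in Serpina7 alone of the 37 (2.70%, against 6.45% of all), and the estrogen response element (GGTCA and TGACC, 3 bases apart) in none of the 37 and in 0.024% of all. The TATA motif TATAAA was found in 6 of the 37 (16.2%, against 12.9% of all). These are letter matches and not binding sites.

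No member passed an adjusted p of 0.05 in any comparison (limma, Benjamini-Hochberg over all 10228 probes tested). Between estradiol benzoate and vehicle, 0 of 58 members passed, beside 0% of all probes, and the smallest adjusted p of a member was 0.159. At an unadjusted p under 0.05 there were 10 members, or 17.2%, beside 13.5% of all probes. Of these 3 were higher (5.17% of members, beside 6.77% of all probes) and 7 lower (12.1% of members, beside 6.69% of all). Between testosterone and vehicle, 0 members passed, beside 0.0489% of all probes, with a smallest adjusted p of 0.136. At an unadjusted p under 0.05 there were 7 members, or 12.1%, beside 14.0% of all probes, with 4 higher (6.90% of members, beside 6.62% of all) and 3 lower (5.17% of members, beside 7.43% of all). Between estradiol benzoate and testosterone, 0 members passed, beside 0.0293% of all, and 2 had an unadjusted p under 0.05, or 3.45%, beside 4.13% of all. Both were higher, beside 2.41% of all probes. The limma F test over the 3 groups called 0 members (0.00978% of all probes) and gave 8 at an unadjusted p under 0.05, against 11.9% of all. For estradiol benzoate against vehicle the share of members that were lower was above that of the array, and it stayed above it with each animal left out in turn (6 or 7 members, or 10.3% to 12.1%, beside 4.44% to 8.18% of all probes). Those fits share the probes and most of the animals, so they are not separate evidence. Without the dimmest 25% of probes the share that were lower was 3 of 39 members, or 7.69%, beside 7.14% of all.

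Members whose group values did not overlap were also counted. For estradiol benzoate against vehicle there were 7 (12.1% of members), beside 7.82% of all probes, with 2 higher (3.45%, beside 3.53% of all) and 5 lower (8.62%, beside 4.29% of all). For testosterone against vehicle there were 2 (3.45% of members), beside 5.59% of all, and both were lower (3.14% of all). For estradiol benzoate against testosterone there were 3 (5.17% of members), beside 3.05% of all, with 2 higher (1.88% of all) and 1 lower (1.17% of all). The median log2 difference of the 58 members was 0.074, 0.039 and 0.033 in the 3 comparisons, in the order just given, and that of all probes was -0.012, -0.013 and -0.0045. Both hormone comparisons use the same 4 vehicle animals, so their values are set side by side and not treated as separate evidence. Since these are whole arteries, fewer cells of a type and less RNA per cell cannot be told apart. The p-values set each group difference against the spread between animals, moderated over all probes. The duplicate arrays enter only as a mean, so that spread also holds array error.

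**Figure D1:**
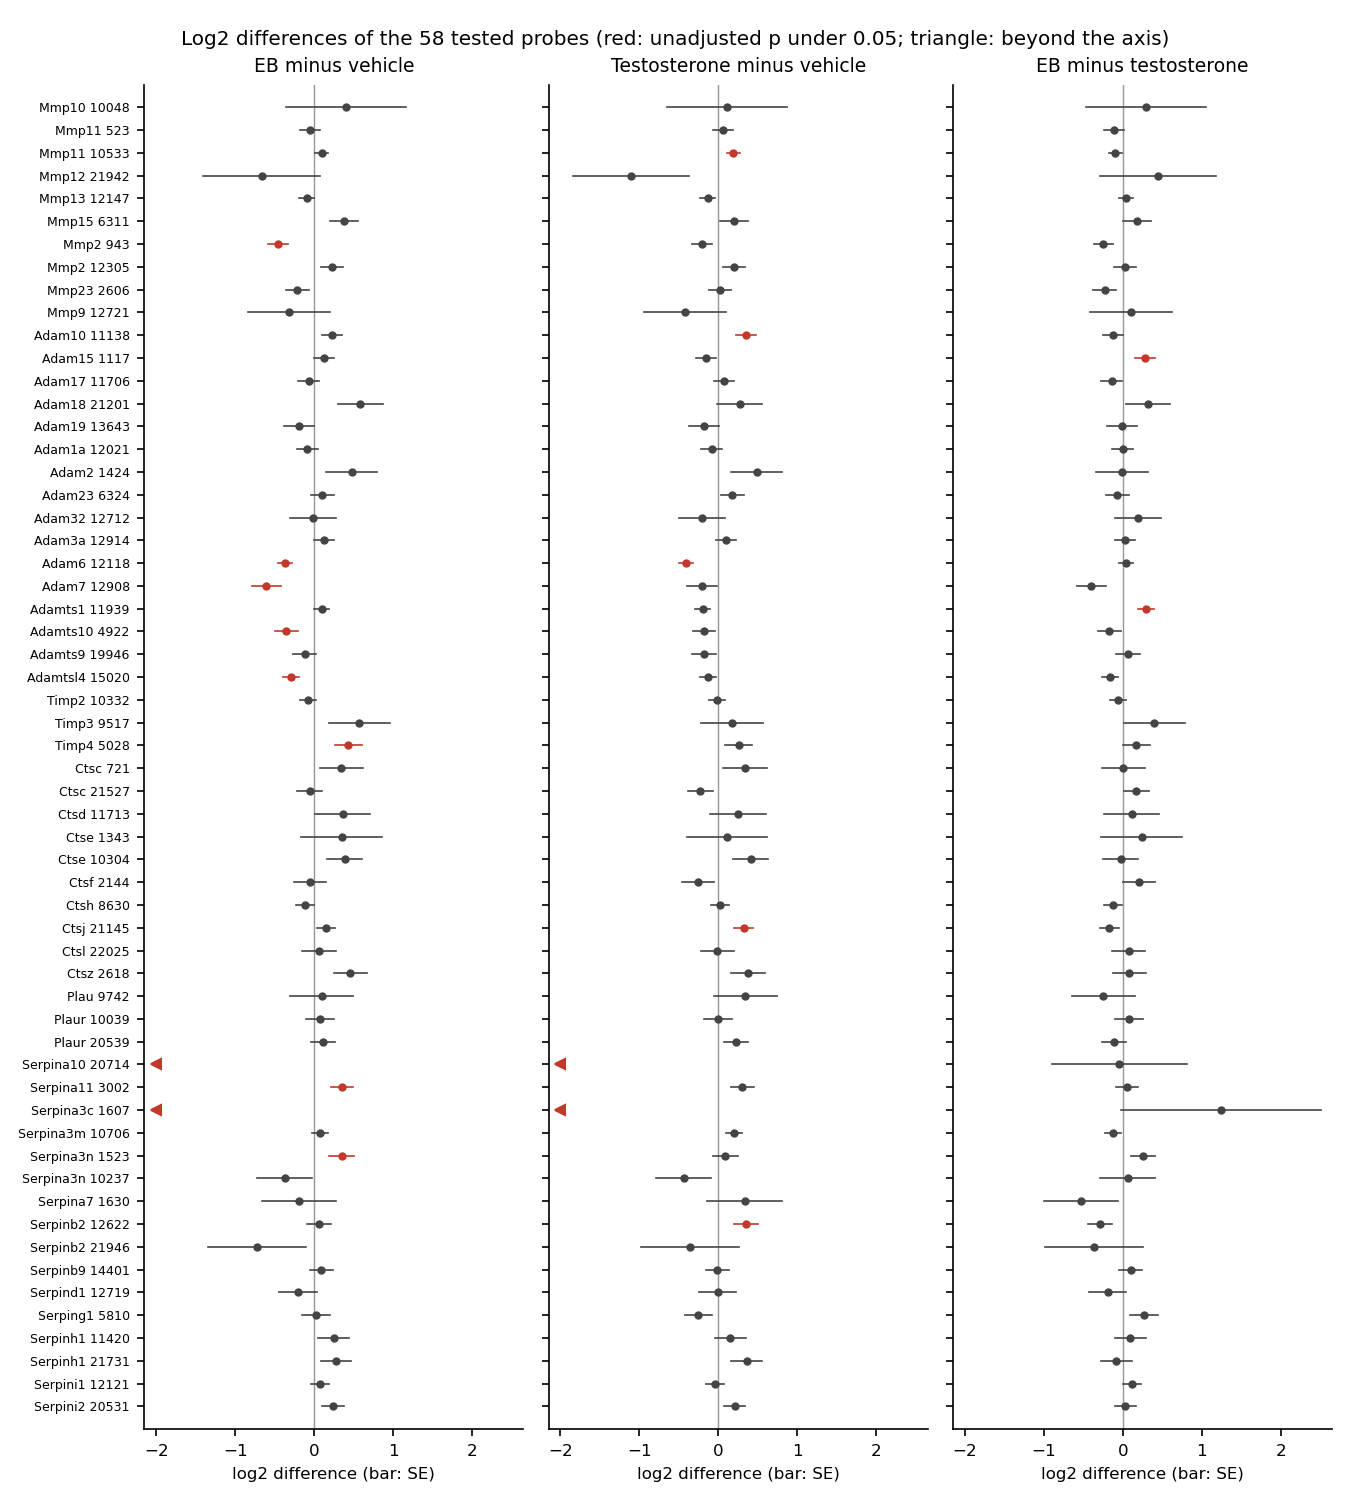
Log2 difference (points) and its standard error (bars) of the 58 tested member probes in the 3 comparisons, one probe per line. Red points have an unadjusted p under 0.05 (10, 7 and 2 probes from left to right) and none passed the adjusted threshold; triangles mark Serpina3c and Serpina10, whose differences of -3.86 and -2.59 (left) and of -5.10 and -2.55 (middle) lie beyond the axis.

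Among the metalloproteinases, Mmp2 (gelatinase A, which cuts denatured and basement membrane collagen) had the smallest p. Its brighter probe (943) read 6.79, 6.13, 7.37 and 7.38 in the estradiol benzoate animals, 7.68, 9.78, 6.70 and 8.84 in the testosterone animals, and 10.1, 8.27, 9.94 and 9.60 in the vehicle animals. Every estradiol benzoate animal lay below every vehicle animal, and the testosterone animals reached into both ranges. The log2 difference was -0.45 (SE 0.12, unadjusted p = 0.00347, limma adjusted p = 0.198) for estradiol benzoate against vehicle. It was -0.21 (SE 0.12, unadjusted p = 0.116) for testosterone against vehicle and -0.24 (SE 0.12, unadjusted p = 0.074) for estradiol benzoate against testosterone. The second Mmp2 probe (12305) did not share that direction. It read 0.570, 0.506, 0.496 and 0.479 in estradiol benzoate animals against 0.494, 0.481, 0.350 and 0.437 in vehicle animals, a difference of 0.23 (SE 0.14, unadjusted p = 0.128). The probes of Mmp2 thus gave opposite signs, and which transcript region each reads was not analysed here.

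Mmp15, a membrane-anchored metalloproteinase, read 1.52, 1.85, 1.72 and 1.59 in estradiol benzoate animals, 1.83, 1.23, 1.62 and 1.25 in testosterone animals, and 1.44, 1.40, 1.48 and 0.896 in vehicle animals. The estradiol benzoate animals all lay above the vehicle animals, by 0.38 on the log2 scale (SE 0.18, unadjusted p = 0.0536, limma adjusted p = 0.377). Vehicle animal 8 was the low one, and without it the difference was 0.21 (unadjusted p = 0.17). Mmp11 (stromelysin 3) had a testosterone minus vehicle difference of 0.19 (SE 0.09, unadjusted p = 0.0495) at probe 10533 and of 0.06 (SE 0.13) at probe 523. Mmp23, an atypical membrane-bound member, had an estradiol benzoate minus testosterone difference of -0.23 (SE 0.14, unadjusted p = 0.137).

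Mmp9, Mmp10 and Mmp12 varied more between animals than between groups. For Mmp10 (stromelysin 2), the values were 0.122, 0.104, 0.604 and 0.757 in estradiol benzoate animals, 0.160, 0.140, 0.483 and 0.235 in testosterone animals, and 0.0945, 0.144, 0.204 and 0.680 in vehicle animals. High animals therefore occurred in every group, and the 3 comparisons gave differences of 0.41, 0.11 and 0.30, each with an SE of 0.76. Mmp10 arrays of 1 animal also disagreed, with 0.0703 on AA and 0.591 on AB for vehicle animal 5, and 0.384 on AA and 0.143 on AB for testosterone animal 8. The Mmp12 probe (macrophage elastase) was dim, and in vehicle animal 8 its arrays read 0.0268 on AA and 0.318 on AB. Its differences of -0.67 and -1.11 from vehicle, for estradiol benzoate and testosterone, each had an SE of 0.74. Mmp9 (gelatinase B) differed by -0.32 and -0.42 from vehicle under the 2 hormones, each with an SE of 0.52, and its arrays for testosterone animal 4 read 0.0643 on AA and 0.274 on AB. Mmp13 (collagenase 3) was steady, between 2.14 and 2.77 in all 12 animals.

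**Figure D2:**
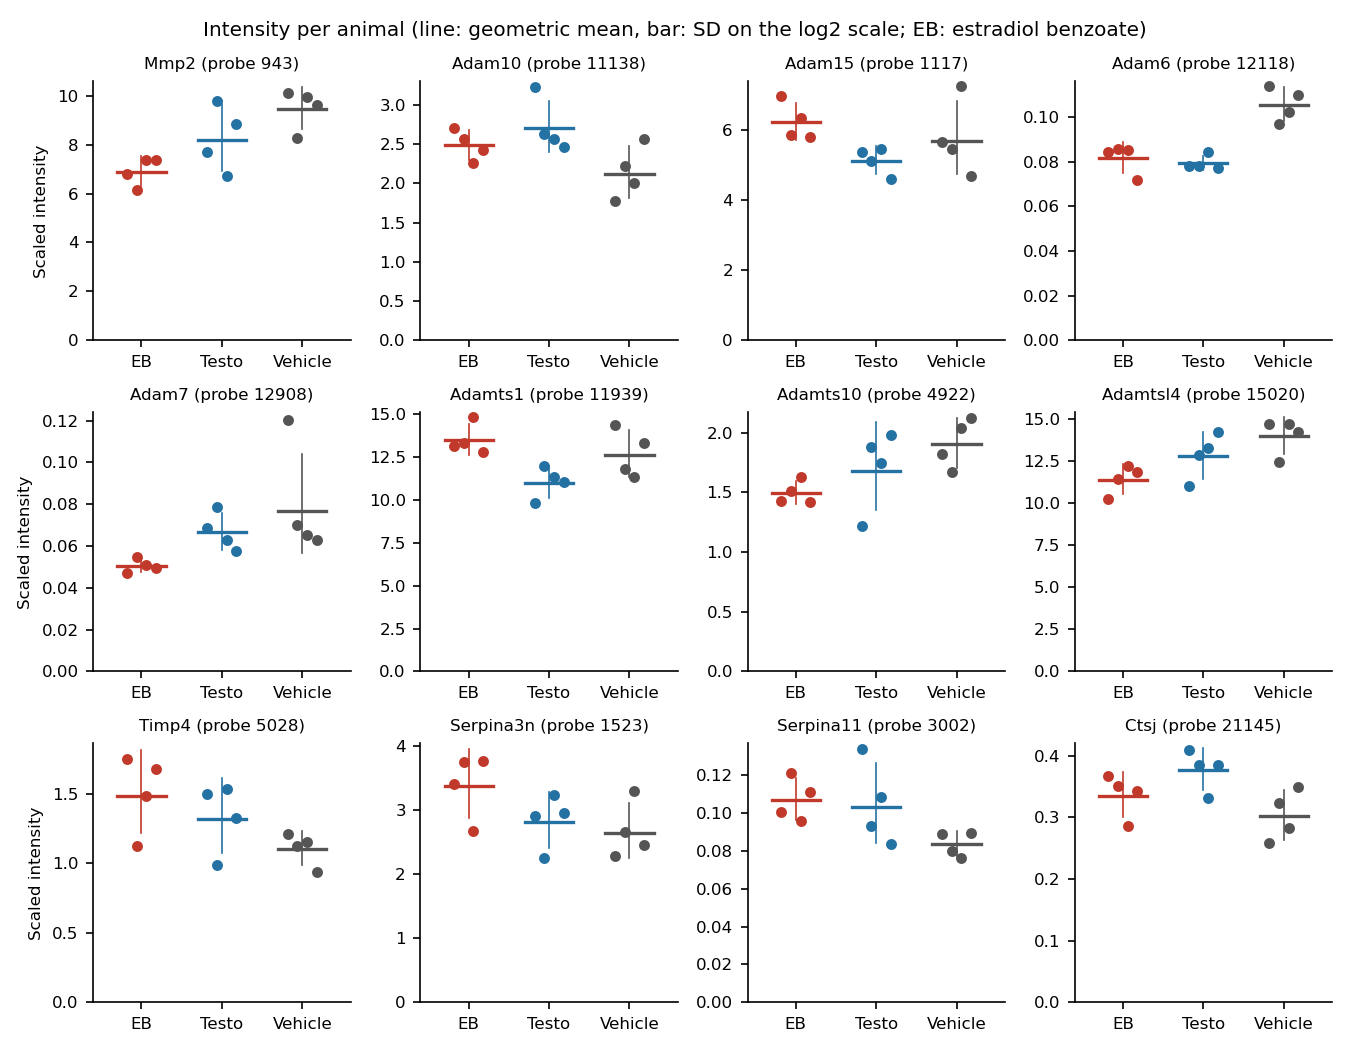
Scaled intensity per animal for 12 members with small unadjusted p-values in at least 1 comparison, with 4 points per group, a line at the group's geometric mean and a bar of 1 SD on the log2 scale. Mmp2, Adam6, Adam7, Adamts10 and Adamtsl4 have all estradiol benzoate animals below all vehicle animals, and Adamts1 and Adam15 have all estradiol benzoate animals above all testosterone animals.

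Adam6 had the smallest p of any member in both hormone comparisons. In the mouse, Adam6 genes lie within the immunoglobulin heavy chain locus and serve male fertility. The probe read 0.0845, 0.0857, 0.0852 and 0.0720 in estradiol benzoate animals, 0.0781, 0.0780, 0.0845 and 0.0773 in testosterone animals, and 0.114, 0.0970, 0.102 and 0.110 in vehicle animals. No hormone-treated animal reached the lowest vehicle animal. The log2 differences were -0.37 for estradiol benzoate against vehicle (SE 0.09, unadjusted p = 0.00116, limma adjusted p = 0.159) and -0.41 for testosterone against vehicle (SE 0.09, unadjusted p = 0.00053, adjusted p = 0.136). These levels are low on the array, and the SD between duplicate arrays was 0.152 on the log2 scale. The SD between animals of a group was 0.098, below the error of an animal's mean of 2 arrays (0.107). The small p of Adam6 thus rests on an animal spread no larger than the array error. With 0.1 added to every value before the logarithm, the differences were -0.18 and -0.19.

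Adam7, known from the epididymis, read 0.0470, 0.0546, 0.0511 and 0.0495 in estradiol benzoate animals, 0.0686, 0.0787, 0.0627 and 0.0577 in testosterone animals, and 0.120, 0.0702, 0.0654 and 0.0629 in vehicle animals. The estradiol benzoate animals were below all animals of both other groups. The log2 difference from vehicle was -0.60 (SE 0.19, unadjusted p = 0.00716, limma adjusted p = 0.246), and from testosterone -0.40 (SE 0.19, unadjusted p = 0.0542). Vehicle animal 3 stood above the rest, and without it the difference from vehicle was -0.39 (unadjusted p = 0.00584, limma adjusted p = 0.394). Over all animals left out in turn and all other settings, no Adam7 difference passed the adjusted threshold.

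The broadly expressed sheddases Adam10 and Adam17 release growth factors, cytokines and receptors from the membrane. Adam10 read 2.70, 2.57, 2.25 and 2.43 in estradiol benzoate animals, 3.22, 2.63, 2.57 and 2.47 in testosterone animals, and 1.78, 2.22, 2.00 and 2.56 in vehicle animals. The testosterone range met the vehicle range at its low end, through vehicle animal 8. The differences were 0.35 for testosterone against vehicle (SE 0.13, unadjusted p = 0.0162, limma adjusted p = 0.289) and 0.23 for estradiol benzoate against vehicle (SE 0.13, unadjusted p = 0.0971). Adam17 (TNF-converting enzyme) stayed between 0.724 and 1.04 in all animals, with differences of -0.07 and 0.07 (SE 0.13 each).

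Adam15, a disintegrin with an integrin-binding motif found in vessel wall cells, had its smallest p in the comparison between the hormones. Probe 1117 read 6.95, 5.86, 6.34 and 5.80 in estradiol benzoate animals, 5.36, 5.12, 5.45 and 4.59 in testosterone animals, and 5.64, 5.46, 7.24 and 4.69 in vehicle animals. All estradiol benzoate animals lay above all testosterone animals, with a log2 difference of 0.28 (SE 0.13, unadjusted p = 0.0477, limma adjusted p = 0.999). Of all probes, 1.88% did not overlap in that direction. The limma unadjusted p of this Adam15 difference was under 0.05 in 5 of 10 other processing settings. The vehicle range covered the estradiol benzoate animals and all testosterone animals except animal 8, which at 4.59 was below it. Of the other ADAM probes, Adam19 and Adam23 differed from vehicle by at most 0.19 in size under either hormone. Adam1a and Adam3a, best known from sperm, differed by at most 0.13 in size. The sperm-associated Adam2, Adam18 and Adam32 were read below 0.04 in every animal, where differences had an SE of 0.28 to 0.32 and no test gave an unadjusted p under 0.05.

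Of the ADAMTS group, 3 members had group values that did not overlap in 1 comparison each. Of all probes, 7.82% did not overlap between estradiol benzoate and vehicle. The shares were 5.59% between testosterone and vehicle and 3.05% between the hormones. Adamts1, which cuts the proteoglycan versican, read 13.1, 13.3, 14.9 and 12.8 in estradiol benzoate animals, 9.82, 12.0, 11.3 and 11.0 in testosterone animals, and 14.4, 11.8, 11.3 and 13.3 in vehicle animals. All estradiol benzoate animals lay above all testosterone animals, a log2 difference of 0.29 (SE 0.10, unadjusted p = 0.0126, limma adjusted p = 0.872), the smallest p of a member in that comparison. The difference ranged between 0.24 and 0.34 when each animal was left out in turn. Against vehicle, testosterone differed by -0.20 (SE 0.10, unadjusted p = 0.0687) and estradiol benzoate by 0.09 (SE 0.10).

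Adamtsl4, a secreted ADAMTS-like protein without the protease domain that binds fibrillin microfibrils, read 10.2, 11.4, 12.2 and 11.8 in estradiol benzoate animals, 11.0, 12.9, 13.3 and 14.2 in testosterone animals, and 14.7, 12.4, 14.7 and 14.3 in vehicle animals. The estradiol benzoate animals were all below the vehicle animals, by -0.30 on the log2 scale (SE 0.10, unadjusted p = 0.0134, limma adjusted p = 0.284). Adamts10, which also acts on fibrillin microfibrils, read 1.42, 1.51, 1.63 and 1.42 in estradiol benzoate animals, 1.22, 1.88, 1.75 and 1.98 in testosterone animals, and 1.82, 1.67, 2.04 and 2.12 in vehicle animals. It too was below every vehicle animal under estradiol benzoate, with a difference of -0.35 (SE 0.14, unadjusted p = 0.0328, limma adjusted p = 0.327). Testosterone minus vehicle was -0.13 for Adamtsl4 and -0.18 for Adamts10, and their testosterone and vehicle ranges overlapped. Adamts9 differed from vehicle by -0.12 under estradiol benzoate and -0.18 under testosterone (SE 0.15 each).

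The cathepsins gave 10 probes for 8 genes, and 1 probe in 1 comparison had an unadjusted p under 0.05. That was Ctsj, a cathepsin known from the rodent placenta, which read 0.367, 0.351, 0.286 and 0.342 in estradiol benzoate animals, 0.410, 0.384, 0.332 and 0.386 in testosterone animals, and 0.259, 0.322, 0.283 and 0.350 in vehicle animals. Testosterone animals were high but overlapped the vehicle range, and the difference was 0.32 (SE 0.12, unadjusted p = 0.0194, limma adjusted p = 0.297). Ctsz differed from vehicle by 0.46 under estradiol benzoate (SE 0.21, unadjusted p = 0.0513) and by 0.38 under testosterone (SE 0.21, unadjusted p = 0.102). Ctsd, the lysosomal aspartic protease, ranged between 0.826 and 2.26 over the 12 animals with differences of 0.36 and 0.25 from vehicle (SE 0.35 each). Ctsl, a lysosomal cysteine protease, differed by 0.06 and -0.01 (SE 0.21 each). The 2 probes of Ctsc, which activates granule serine proteases, disagreed in sign under estradiol benzoate, with -0.05 (SE 0.16) at probe 21527 and 0.34 (SE 0.28) at probe 721.

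Urokinase (Plau) read 0.353, 0.251, 0.293 and 0.255 in estradiol benzoate animals, 0.347, 0.339, 0.570 and 0.195 in testosterone animals, and 0.141, 0.320, 0.203 and 0.553 in vehicle animals. The spread within the testosterone and vehicle groups exceeded any difference between groups, which was 0.10 for estradiol benzoate and 0.34 for testosterone against vehicle (SE 0.40 each). Its receptor Plaur read between 0.526 and 0.822 over all animals at probe 20539, with differences from vehicle of 0.12 and 0.22 (SE 0.15 each). The dimmer Plaur probe (10039) gave 0.07 and -0.01 (SE 0.18 each).

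Of the 3 TIMPs, Timp4, the inhibitor best known from heart and vessels, read 1.75, 1.12, 1.49 and 1.68 in estradiol benzoate animals, 1.50, 0.988, 1.54 and 1.33 in testosterone animals, and 1.21, 1.13, 1.16 and 0.938 in vehicle animals. Estradiol benzoate animal 3 lay within the vehicle range and the other 3 above it. The difference was 0.43 for estradiol benzoate against vehicle (SE 0.17, unadjusted p = 0.0275, limma adjusted p = 0.323) and 0.26 for testosterone against vehicle (SE 0.17, unadjusted p = 0.16). Timp2, which inhibits metalloproteinases and also takes part in activating pro-MMP2 at the cell surface, read 11.2, 10.1, 9.49 and 12.0 in estradiol benzoate animals, 11.8, 10.4, 11.5 and 10.7 in testosterone animals, and 10.5, 12.9, 11.1 and 10.5 in vehicle animals. Its groups overlapped throughout, with differences of -0.07 and -0.02 from vehicle (SE 0.10 each).

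Timp3, the matrix-bound inhibitor that also blocks ADAM17, had the widest animal spread relative to its array error among the 58 tested members. It read 1.17, 1.38, 1.53 and 2.05 in estradiol benzoate animals, 1.16, 1.27, 1.89 and 0.598 in testosterone animals, and 0.569, 1.71, 0.776 and 1.37 in vehicle animals. Testosterone animal 8 and vehicle animals 3 and 5 were the low ones. The SD between animals of a group was 0.61 on the log2 scale, 11.8 times the error of an animal's mean of 2 arrays. The differences from vehicle were 0.57 (SE 0.39, unadjusted p = 0.168) under estradiol benzoate and 0.17 (SE 0.39) under testosterone. Without vehicle animal 3, the Timp3 differences were 0.29 and -0.11, so the sign under testosterone turned.

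**Figure D3:**
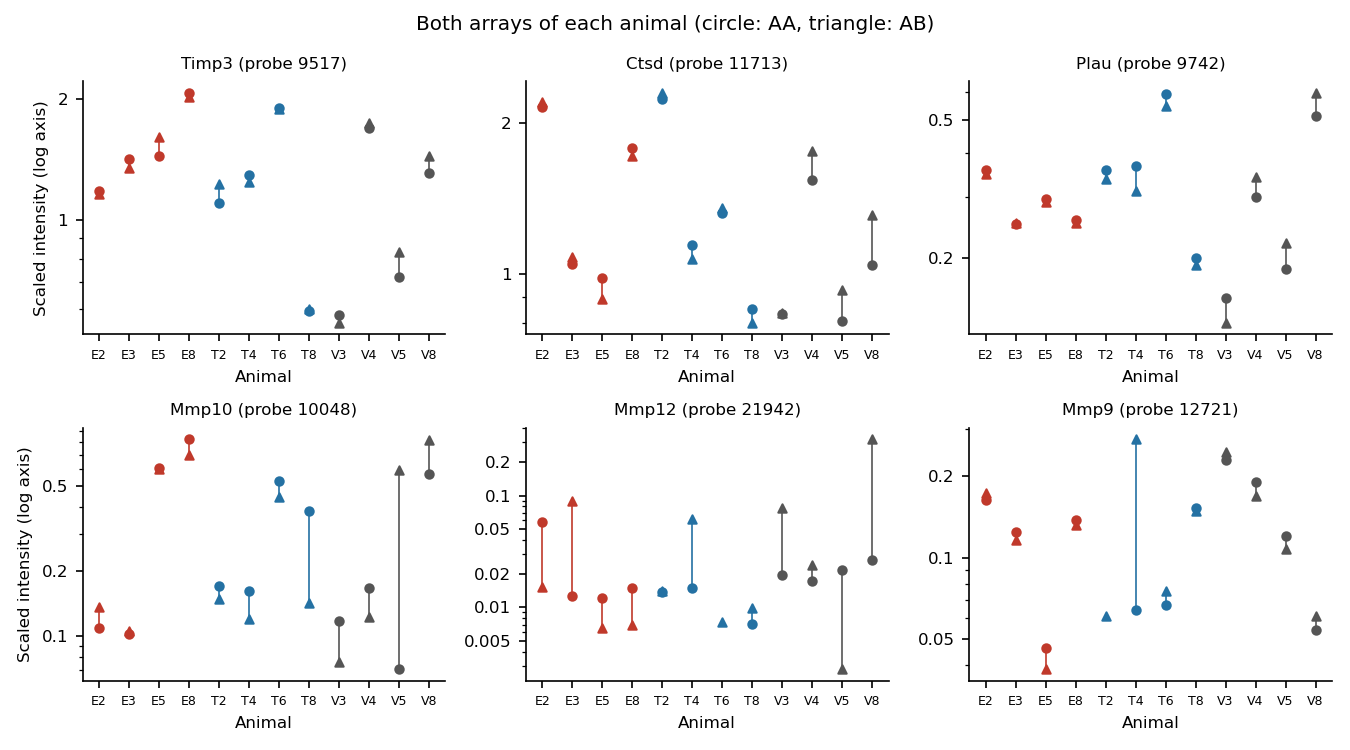
Scaled intensity on both arrays of each animal (circle AA, triangle AB, joined by a line), on a log axis, for 3 members with close duplicates (Timp3, Ctsd, Plau) and 3 with wide ones (Mmp10, Mmp12, Mmp9). Timp3, Ctsd and Plau have their 3 lowest animals in common (T8, V3 and V5), and the Mmp12 arrays of V8 lie at 0.0268 and 0.318.

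The serpins outside clade A (Serpina) had small differences in most comparisons. Serpinh1 (Hsp47), the collagen chaperone of the endoplasmic reticulum, differed from vehicle by 0.25 and 0.15 at probe 11420 and by 0.28 and 0.36 at probe 21731 under estradiol benzoate and testosterone (SE 0.19 each, smallest unadjusted p = 0.0902). Serping1, the C1 inhibitor of complement, read 8.55, 9.67, 7.62 and 10.3 in estradiol benzoate animals, 6.04, 7.29, 7.18 and 9.64 in testosterone animals, and 9.73, 8.89, 10.8 and 6.58 in vehicle animals. Its groups overlapped, with an estradiol benzoate minus testosterone difference of 0.27 (SE 0.18, unadjusted p = 0.148). Serpinb2 (plasminogen activator inhibitor 2) had a testosterone minus vehicle difference of 0.35 at probe 12622 (SE 0.15, unadjusted p = 0.0411, limma adjusted p = 0.344) and of -0.36 at the dimmer probe 21946 (SE 0.62). Serpinb9, an inhibitor of granzyme B, differed from vehicle by 0.09 and -0.01 (SE 0.15 each). Serpini1 (neuroserpin) and Serpini2 differed from vehicle by at most 0.24 in size.

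Serpina3n and Serpina3m belong to a rodent cluster of serpins related to antichymotrypsin. Their probe sequences were not compared here, so the probes may share signal and their values are uncertain. Serpina3n at probe 1523 read 3.41, 3.75, 2.68 and 3.78 in estradiol benzoate animals, 2.91, 2.26, 3.24 and 2.96 in testosterone animals, and 2.29, 2.66, 3.31 and 2.46 in vehicle animals. The ranges overlapped through estradiol benzoate animal 5 and vehicle animal 5, and the difference from vehicle was 0.35 (SE 0.16, unadjusted p = 0.0453, limma adjusted p = 0.357). At probe 10237 the estradiol benzoate minus vehicle difference of Serpina3n was -0.37 (SE 0.35), with vehicle animal 5 at 0.708 and all other animals between 0.160 and 0.301. Without vehicle animal 5, this second Serpina3n probe gave 0.06 and the first 0.46. Serpina3m differed from vehicle by 0.08 and 0.20 (SE 0.10 each, unadjusted p = 0.472 and 0.0798). Serpina11 read 0.101, 0.121, 0.0957 and 0.111 in estradiol benzoate animals, 0.134, 0.0928, 0.108 and 0.0834 in testosterone animals, and 0.0887, 0.0797, 0.0761 and 0.0895 in vehicle animals. Its estradiol benzoate animals all lay above the vehicle animals, by 0.36 (SE 0.14, unadjusted p = 0.0269, limma adjusted p = 0.319), and the testosterone difference was 0.30 (SE 0.14, unadjusted p = 0.0522).

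The largest differences of all members belonged to Serpina3c and Serpina10, and both rested on the vehicle animals. Serpina3c read 0.0161, 0.0811, 0.114 and 0.0188 in estradiol benzoate animals, 0.0178, 0.0165, 0.0180 and 0.0168 in testosterone animals, and 0.993, 0.510, 7.19 and 0.0341 in vehicle animals. Serpina10, the protein Z-dependent inhibitor of coagulation factor X, read 0.0130, 0.0287, 0.0238 and 0.0246 in estradiol benzoate animals, 0.0294, 0.0191, 0.0175 and 0.0255 in testosterone animals, and 0.132, 0.0800, 1.10 and 0.0251 in vehicle animals. Vehicle animal 5 was highest for both, followed by animals 3, 4 and 8 in that order, and animal 8 lay within the estradiol benzoate range. The hormone-treated values lie at the low end of the array, and no detection call was used here, so the size of the log2 differences is uncertain.

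For Serpina3c the log2 difference was -3.86 for estradiol benzoate (SE 1.27, unadjusted p = 0.0105, limma adjusted p = 0.271) and -5.10 for testosterone (SE 1.27, unadjusted p = 0.0018, limma adjusted p = 0.194) against vehicle. For Serpina10 they were -2.59 (SE 0.85, unadjusted p = 0.0108) and -2.55 (SE 0.85, unadjusted p = 0.0119). Without vehicle animal 5 the Serpina10 differences were -1.57 and -1.52, and with 0.1 added to every value they were -1.20 and -1.19. Leaving out vehicle animal 8 took Serpina3c to -6.48 under testosterone with a limma adjusted p of 0.0276, and leaving out vehicle animal 5 took it to -3.90 with 0.157. The adjusted p of that difference ranged between 0.0276 and 0.390 over all animals left out in turn.

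The summed intensity of genes typical of hepatocytes was high in the same animals. Of a list of 25 such genes 12 were measured, 6 of them among the dimmest 25% of probes and none listed at 0. Their summed intensity was 3.13 to 3.44 in estradiol benzoate animals, 2.73 to 3.12 in testosterone animals, and 7.72, 5.37, 38.8 and 2.83 in vehicle animals 3, 4, 5 and 8. Vehicle animals 5, 3 and 4 were thus also the highest for this sum, in the same order. Of the 12 genes, 11 were lower than vehicle and 1 higher under estradiol benzoate, and 10 lower and 2 higher under testosterone. At an unadjusted p under 0.05 (limma), 5 and 7 were lower, beside 6.69% and 7.43% of all probes. With vehicle animal 5 left out, 9 genes were lower and 3 higher under either hormone. Of these genes 6 were then lower at that p under either hormone, beside 6.82% and 6.80% of all probes. Within the list, Fetub (fetuin B) differed from vehicle by -3.60 under estradiol benzoate (unadjusted p = 0.00217) and -4.69 under testosterone (unadjusted p = 0.00029). Gc (vitamin D-binding protein) differed by -3.98 and -5.06. None of the 12 passed the adjusted threshold, and the part of liver-type RNA in the Serpina3c and Serpina10 differences was not tested. Serpina7 (thyroxine-binding globulin, made in the liver) read 0.0362 in vehicle animal 5 and between 0.00542 and 0.0160 in the other 11. Vehicle animal 4 was the lowest of all for Serpina7, unlike for Serpina3c and Serpina10. Without vehicle animal 5 the Serpina7 difference from vehicle was 0.38 under estradiol benzoate. Under testosterone it was 0.91 (limma unadjusted p = 0.00278, adjusted p = 0.141). The SD of Serpina7 between animals of a group was only 1.21 times the error of an animal's mean of 2 arrays. Serpind1 (heparin cofactor II, also from the liver) read 1.07 in vehicle animal 5 and 0.883 in testosterone animal 2, and between 0.445 and 0.634 in the others.

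**Figure D4:**
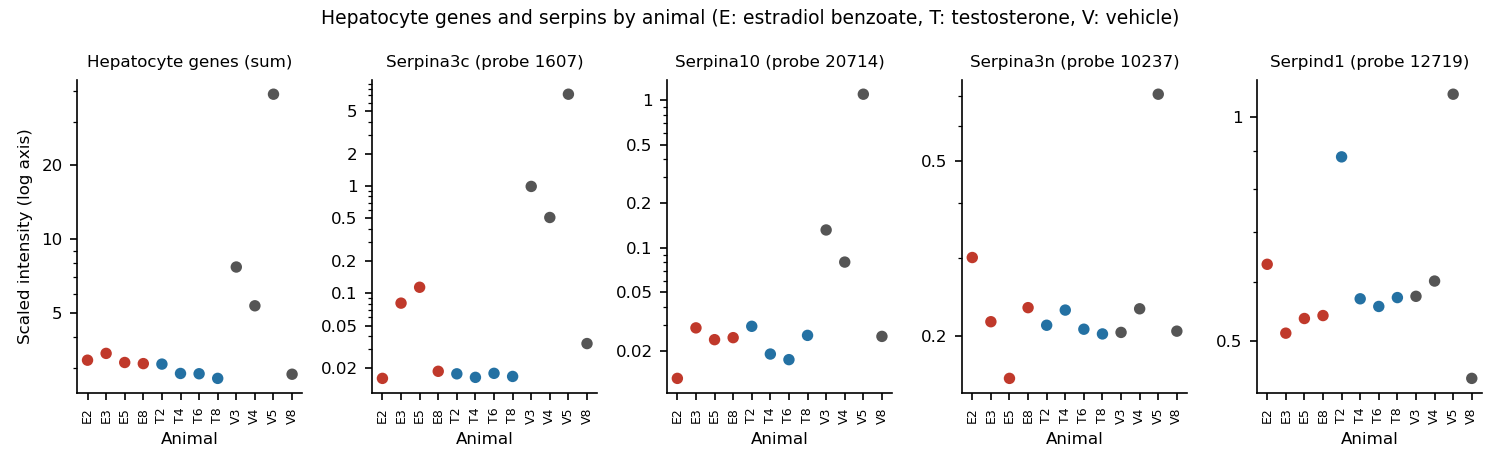
Scaled intensity per animal, on a log axis, of the summed hepatocyte list and of 4 serpin probes (E estradiol benzoate, T testosterone, V vehicle). V5 is the highest animal in all 5 plots, at 38.8 for the list, 7.19 for Serpina3c, 1.10 for Serpina10, 0.708 for Serpina3n probe 10237 and 1.07 for Serpind1. Other clade A serpins, not plotted, differ from this: Serpina11 is lowest in V5, Serpina3m is highest in T2 and Serpina3n probe 1523 is highest in E8.

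Markers of other tissues also differed between animals. A pancreas list (13 of 25 measured, 12 among the dimmest 25%) summed to 0.850, 119, 2.04 and 5.89 in estradiol benzoate animals, 0.668 to 2.77 in testosterone animals and 0.787 to 1.53 in vehicle animals, so estradiol benzoate animal 3 stood far apart. Of these 13 genes 12 had a positive difference from vehicle under estradiol benzoate (median 2.59 on the log2 scale) and 6 were higher at an unadjusted p under 0.05, and all 13 had a positive estradiol benzoate minus testosterone difference. Without estradiol benzoate animal 3, 12 of 13 had a positive difference from vehicle (median 1.20). Of these genes 3 were then higher at that p, beside 4.52% of all probes. White adipocyte genes (10 of 18 measured) summed to 109 to 117, 97.3 to 137 and 88.4 to 107 in the same group order, with 5 and 4 genes higher than vehicle at an unadjusted p under 0.05. Lymphocyte genes (9 of 16 measured) summed to 1.70 to 2.45, 1.58 to 2.20 and 1.61 to 1.94, with 6 and 4 higher. Of all probes, 6.77% were higher than vehicle at that p under estradiol benzoate and 6.62% under testosterone. Smooth muscle (4 of 13 measured) and endothelial (9 of 12 measured) genes, the defining cells of an artery, were present in every animal, with sums of 44.6 to 67.1 and 51.7 to 72.6 over the 12 animals. Without estradiol benzoate animal 3, 7 members had an unadjusted p under 0.05 in estradiol benzoate against vehicle (12.1%, beside 8.96% of all probes), and without vehicle animal 5 there were 11 (19.0%, beside 12.6% of all). The part of any of these lists in the member values was not tested.

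Partners and substrates of these enzymes were followed in 3 further lists, in which no gene passed the adjusted threshold. Of 17 measured plasminogen and coagulation genes, 1 was higher and 3 lower under estradiol benzoate, and 1 higher and 4 lower under testosterone, at an unadjusted p under 0.05 against vehicle. Of all probes, 6.77% were higher and 6.69% lower under estradiol benzoate, and 6.62% and 7.43% under testosterone. The same shares stand beside the lists that follow. As drawn up, the coagulation list shares F2, Fga, Fgb, Fgg and Kng1 with the hepatocyte list. Its mean log2 level in vehicle animal 5 lay 0.63 above the mean of all animals, beside -0.22 to 0.07 in the others. Plat (tissue plasminogen activator) differed by -0.48 under estradiol benzoate (unadjusted p = 0.007) and -0.38 under testosterone (unadjusted p = 0.0247). F8 (coagulation factor VIII) differed by 0.30 and 0.42, and F5 (coagulation factor V) by -0.49 and -0.47. F13a1, the factor XIII subunit found in macrophages and platelets, differed by -0.78 under testosterone (unadjusted p = 0.0127). Of 7 measured macrophage genes, 3 were lower under testosterone and 0 under estradiol benzoate at a limma unadjusted p under 0.05. The summed intensity of these macrophage genes was 46.0, 46.9, 67.4 and 41.1 in vehicle animals 3, 4, 5 and 8. In testosterone animals it was 35.5 to 47.5. The part of macrophage RNA in the F13a1 difference was not tested. F3 (tissue factor) had an estradiol benzoate minus testosterone difference of -0.47 (unadjusted p = 0.0381).

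Of 13 other protease and inhibitor genes, 2 were higher and 4 lower under estradiol benzoate, and 1 higher and 3 lower under testosterone, by the same measure. Mme (neprilysin, which degrades vasoactive peptides) differed from vehicle by 0.59 and 0.73 (unadjusted p = 0.0245 and 0.00771). Bmp1 (procollagen C-proteinase) differed by -0.36 under estradiol benzoate, and the liver-secreted Itih4 by -1.21 and -1.23 beside the hepatocyte list that holds it. Slpi (secretory leukocyte protease inhibitor) and Furin had estradiol benzoate minus testosterone differences of 0.44 and 0.36 (unadjusted p = 0.0186 and 0.0476).

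Of 21 matrix substrate genes, 0 were higher and 4 lower under estradiol benzoate, and 2 higher and 3 lower under testosterone, at an unadjusted p under 0.05 against vehicle. Postn (periostin) differed by -0.60 (unadjusted p = 0.00197), Fbln2 (fibulin 2) by -0.39 (unadjusted p = 0.0102) and Vcan (versican, a target of Adamts1) by -0.43 (unadjusted p = 0.0131) under estradiol benzoate. Under testosterone Fn1 (fibronectin) differed by 0.45 (unadjusted p = 0.00767), Bcan by 0.97 and Col5a1 by -0.35. Between the hormones, Bcan (brevican) had an estradiol benzoate minus testosterone difference of -1.17 (unadjusted p = 0.0058), Col6a1 of 0.24 and Tnc (tenascin C) of -1.01. The medians of the lists under estradiol benzoate were -0.15 for coagulation partners, -0.20 for other proteases and inhibitors and -0.15 for substrates, beside -0.012 for all probes. Under testosterone they were -0.05, -0.22 and -0.10, beside -0.013 for all probes.

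Precision differed with signal. The 19 members among the dimmest 25% of tested probes had a median SD between duplicate arrays of 0.391 on the log2 scale, and the other 39 of 0.107. The corresponding SDs between animals of a group were 0.442 and 0.216. In 21 of the 39 brighter members and 3 of the 19 dim ones, the animals of a group differed by more than 3 times the error of an animal's mean. Vehicle animal 5 was the highest of the 12 animals for 13 of the 58 members and testosterone animal 2 for 11, beside 12.1% and 12.2% of all probes, and vehicle animal 3 was the lowest for 14, beside 12.8% of all probes.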

How the data were processed

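Mesenteric artery cRNA of 12 rats was read on 24 one-colour arrays, 2 per animal. The file deposited by the authors holds spot intensity on a linear scale, with array medians of 0.926 to 0.951 and 327 values at or below 0 over all arrays. For scanner, background, scaling and spot filtering, the method is not given in the sources used here. Detection calls were not used here. Precision is limited by the number of animals and by signal over background. Gene symbols came from the platform annotation, and all 50 member genes were matched by gene ID to RefSeq. Genome coordinates are those of GRCr8 promoters, not of the array.

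From the deposited intensity, log2 was taken with blanks and values at or below 0 set missing (48 of 1416 member values) and the AA and AB arrays of an animal were averaged. One mean per group was estimated by limma 3.58.1 (R 4.3.3) from all 12 animals, for the 10228 probes measured in 3 or more animals per group, with the default empirical Bayes prior, two-sided tests, Benjamini-Hochberg adjustment over all probes and a threshold of 0.05. An animal was the replicate. The fit was tested on simulated data. Promoter identity used biopython 1.88.

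Members and gene lists were chosen with earlier results of these data known. Genes named with values were the 10 members with the smallest unadjusted p in each comparison, the brightest of each family, 25 well-known members (15 with a probe), the 5 with the largest SD between animals, further probes of these, and the list genes with the smallest p. Other members appear by range or in counts. Alternatives were quantile normalization, a pseudocount of 0.1, filters on dim or missing values, single arrays, a random block per animal, another prior, only the groups compared, the animal number as a block, and each animal left out. The pancreas and hepatocyte lists were also counted without 1 animal, a choice made after seeing the data. Whether animal numbers pair the groups was checked by correlating the deviations of same-numbered animals from their group means. The correlations ran between -0.12 and 0.30 and the labels name no shared litter or day, so the numbers were not used as pairs.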

Additional observations from a re-analysis of the deposited data

Results flagged for a closer look

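The lowest or highest animal of a group stood apart from the other 3 in 8 of 174 groups of 4 (the gap to the nearest animal over the group's range was above the 95% critical value), and chance gives about 1 in 20. Vehicle animal 8 was low for Mmp11 probe 523, at 0.172 against 0.204 in the next animal, and for Mmp15, at 0.896 against 1.40. Vehicle animal 5 was high for Serpina3n probe 10237, at 0.708 against 0.230, and vehicle animal 3 was high for Adam7, at 0.120 against 0.0702. Testosterone animal 8 was low for Ctsf, at 2.56 against 4.51. Testosterone animal 2 was high for Serpind1, at 0.883 against 0.572, and testosterone animal 6 for Adam6, at 0.0845 against 0.0781. Estradiol benzoate animal 8 was low for Adam6, at 0.0720 against 0.0845.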

How the results depend on the processing

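No alternative reversed a called value, since no member was called in the first place. Members called at an adjusted p under 0.05 (limma) stayed at 0 under every alternative except the 24 arrays fitted with the animal as a random block and the data without vehicle animal 8. The random block (duplicate correlation 0.631) called 1 member under estradiol benzoate (Serpina10, limma adjusted p = 0.0422), 1 under testosterone (Serpina3c, -4.93, limma adjusted p = 0.0129) and 2 by the F test. Of all probes, 2.21%, 1.48% and 2.48% were called, where 1 of 58 members is 1.72% and 2 of 58 are 3.45%. That fit applies 1 duplicate correlation to all probes. In Serpina3c and Serpina10 the animals of a group differed by 5.29 and 4.93 times the error of an animal's mean. For them the fit may count duplicate arrays partly as separate animals. Leaving out 1 animal at a time gave 0 to 1 calls under testosterone and by the F test, the 1 being without vehicle animal 8, where 0.108% (testosterone) and 0.137% (F test) of all probes were called. Without vehicle animal 5 no member was called, beside 0.440% of all probes under testosterone. Members at an unadjusted p under 0.05 between the hormones (2) came to 4 in the 2 groups alone, 4 on AA arrays, 1 on AB arrays, 5 with the replicate block and 1 to 4 with an animal left out. Of all probes, 4.94%, 4.04%, 3.95%, 6.20% and 3.08% to 5.01% did so in these settings, beside 4.13% in the reported fit. Under testosterone (7) they came to 3 with the replicate block (9.67% of all probes), 2 of 39 without the dimmest probes (13.7% of all), and 4 to 10 with an animal left out (9.82% to 16.1% of all), beside 14.0% in the reported fit. Under estradiol benzoate (10) they ran between 7 and 12 with an animal left out (8.96% to 16.2% of all probes). On AA arrays they came to 13 (22.4% of members, beside 11.7% of all probes) and on AB arrays to 10 (17.2%, beside 14.6% of all). The median member difference between the hormones was -0.033 on AA arrays and -0.0066 to 0.058 with an animal left out. That under estradiol benzoate was 0.031 with 0.1 added and 0.019 to 0.084 with an animal left out. That under testosterone was -0.00768 with 0.1 added, 0.081 on AA arrays, -0.046 on AB arrays, -0.016 with the replicate block and -0.0063 to 0.074 with an animal left out. The cause of these shifts was not tested. Adding 0.1 shrinks differences of dim probes by its construction. Treating animal numbers as pairs left the members called at the adjusted threshold at 0. Over all probes, the calls fell to 0 from 5 in testosterone against vehicle and from 3 between the hormones. With 4 animals a group and dim probes such as Mmp12 and Serpina7, signal over background limits what can be seen.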

Other observations

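Timp3, Ctsd and Plau share their 3 lowest animals, testosterone animal 8 and vehicle animals 3 and 5, although these belong to 2 groups. This was noticed after the values were seen. Timp3 read 0.598, 0.569 and 0.776 in those animals, Ctsd 0.826, 0.836 and 0.867, and Plau 0.195, 0.141 and 0.203. The same 3 animals were the lowest for 238 of 10031 probes with values in all animals (2.37%), and for 3 of 58 members.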
